A study of Schizosaccharomyces pombe with 6 samples.

Results

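The genes of the nucleosome core were followed in the fission yeast Schizosaccharomyces pombe, in a strain with a mutation of dsk1 and in the wild type. They comprised hta1 and hta2 for histone H2A, htb1 for H2B, hht1, hht2 and hht3 for H3, hhf1, hhf2 and hhf3 for H4, and pht1 for the variant H2A.Z. They were chosen by gene symbol, and all 10 were found among the 5160 entries of the deposited expression table. Poly(A) RNA of whole cells was sequenced in 6 libraries, 3 labelled WT and 3 of the dsk1 mutant, which the study design calls a deletion and the genotype label a knockdown. The labels give no other allele, no culture condition and no statement of whether replicates were separate cultures, so p-values measure the spread between these libraries, which may be technical. The study title concerns Dsk1, Rad52 and repair of DNA double-strand breaks, and the comparison asks which transcripts differ in the mutant of dsk1, a gene for a kinase that phosphorylates SR-type splicing factors.

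Nucleosomes are built from pairs of H2A, H2B, H3 and H4, and cells make most of these proteins in S phase, when newly replicated DNA must be packaged. In fission yeast the GATA-type factor Ams2 activates the core histone genes in S phase by binding promoters that hold AACCCT repeats, while the HIRA complex restrains these genes at other times. H2A.Z is placed in existing chromatin by the SWR1 remodeller, mostly around promoters. In contrast to animal replication-dependent histone mRNAs, yeast histone mRNAs carry poly(A) tails and are captured by oligo(dT).

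The H3 and H4 genes lie in divergent pairs with a shared promoter region, as do hta1 and htb1, while hta2 and pht1 have promoters of their own. These regions are shown because both genes of a pair start from the same stretch of DNA, which allows their transcripts to be compared within a promoter. They come from the RefSeq assembly ASM294v3, and the positions apply to that assembly, since the build used by the authors is not given in the sources used here. Capitals mark AACCCTAACCCT, a tandem pair of the AACCCT unit, on the strand shown.
hta1 and htb1, chrIII:1412182-1412358, minus strand, htb1 side to hta1 side: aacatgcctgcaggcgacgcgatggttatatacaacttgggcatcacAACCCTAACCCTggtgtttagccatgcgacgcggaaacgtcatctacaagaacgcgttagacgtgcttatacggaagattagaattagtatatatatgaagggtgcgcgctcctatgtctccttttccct
hht1 and hhf1, chrI:4699600-4699731, plus strand, hhf1 side to hht1 side: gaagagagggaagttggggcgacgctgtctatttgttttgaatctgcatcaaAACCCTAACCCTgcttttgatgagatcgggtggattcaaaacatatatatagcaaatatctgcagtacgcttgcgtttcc
hht2 and hhf2, chrII:1364985-1365118, minus strand, hht2 side to hhf2 side: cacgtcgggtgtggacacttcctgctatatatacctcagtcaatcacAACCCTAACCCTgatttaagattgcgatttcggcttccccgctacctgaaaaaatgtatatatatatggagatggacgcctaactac
hht3 and hhf3, chrII:3529566-3529685, plus strand, from the hht3 side toward hhf3: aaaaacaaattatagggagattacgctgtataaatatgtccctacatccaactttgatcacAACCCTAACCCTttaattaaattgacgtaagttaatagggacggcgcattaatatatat
hta2, chrI:4053319-4053518, minus strand, 200 bases before hta2: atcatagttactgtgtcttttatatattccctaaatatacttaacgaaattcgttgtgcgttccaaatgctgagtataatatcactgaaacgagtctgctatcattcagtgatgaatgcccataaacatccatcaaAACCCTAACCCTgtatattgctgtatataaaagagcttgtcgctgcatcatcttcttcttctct
pht1, chrII:1503445-1503644, minus strand, 200 bases before pht1: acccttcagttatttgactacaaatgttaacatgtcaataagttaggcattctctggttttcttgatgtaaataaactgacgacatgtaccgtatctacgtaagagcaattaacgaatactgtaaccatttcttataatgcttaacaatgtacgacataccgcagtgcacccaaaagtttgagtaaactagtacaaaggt

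Each of the 5 core histone promoter regions held the repeat AACCCTAACCCT once, and the stretch before pht1 did not hold it. Searched on both strands in windows from 250 bases before to 50 bases after each annotated start, AACCCTAACCCT was present at 20 of 5112 protein-coding genes (0.391%). These were the 9 core histone genes and 11 others. The single unit AACCCT, which the repeat contains, was present at 496 of the 5112 genes (9.70%). The repeat read toward hta1, hta2, hht1, hhf2 and hhf3 and away from their partners htb1, hhf1, hht2 and hht3. Its nearest base was 48 bases before the annotated start of htb1 and of hht2, 53 bases before hhf1 and hta2, 62 before hht3, 69 before hht1, 76 before hhf2, 119 before hta1 and 129 before hhf3. The annotated hhf3 transcript begins at its start codon, so its distance includes any leader it has, and the bases next to hhf3 are not shown.

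**Figure D1:**
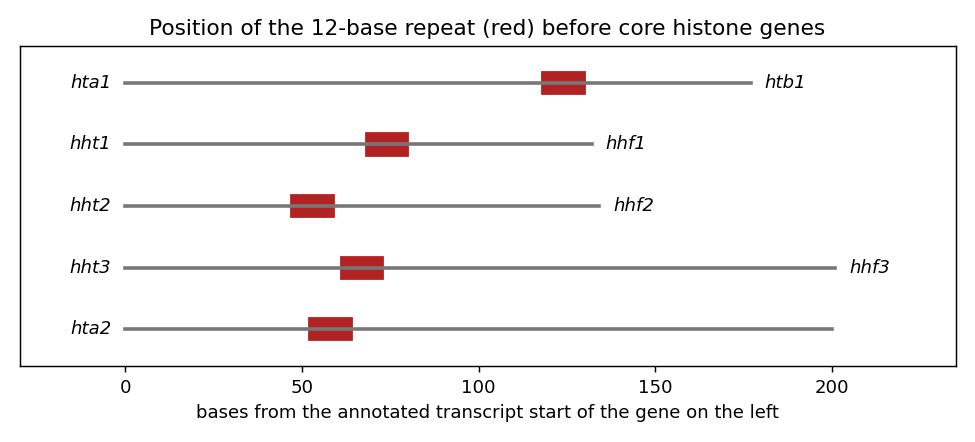
Position of the 12-base repeat AACCCTAACCCT (red boxes) in the 5 core histone promoter regions, in bases from the annotated transcript start of the gene named on the left. Grey lines end at the start of the gene on the right or, for hta2, at 200 bases; the repeat lies 48 to 129 bases from the nearer edge to each start.

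The 3 H3 genes encode the same protein of 136 residues and the 3 H4 genes the same protein of 103 residues. Their coding sequences differ at 30 to 48 of 411 bases for H3 and at 21 to 27 of 312 bases for H4. The H2A proteins have 132 residues for hta1 and 131 for hta2. In the RefSeq transcripts no stretch of 100 bases of any of the 10 genes recurred in another gene, and stretches of 50 bases recurred only between hhf2 and hhf3, at 6 positions of each. The sources used here state neither read length nor the counting of reads with several matches, so counts of single H3 and H4 copies are uncertain and class sums are given beside them. The 10 genes each have an uninterrupted coding sequence. For 8 of them, hht2 and hhf1 being the exceptions, a gene is annotated on the opposite strand over part or all of the transcript, mostly a noncoding RNA not listed in the table. Whether counting used strand is not stated, so reads of such partners cannot be told apart.

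Library totals were 15700362 to 19020530 counts, and each of the 10 genes had at least 2186 counts in each library. The dsk1 transcript was 8.17-fold lower in the mutant, at 13.7, 11.3 and 11.9 counts scaled to library size (CPM) against 99.4, 102 and 99.96 CPM (edgeR quasi-likelihood test, adjusted p = 1.34e-04). The ura4 transcript also differed, at 98.3, 74.9 and 115 CPM in the mutant against 0, 0 and 0 CPM in the wild type (same test, adjusted p = 5.54e-04). Differences that go with ura4 and with dsk1 cannot be told apart in these libraries. Wild-type replicate 2 stood apart on the first principal component, which held 61.9% of the variance, at -36.6 against -8.22 and -0.60 for the other wild-type libraries and 11.4 to 18.5 for the mutant libraries. The 10 histone genes took 0.722%, 0.796% and 0.706% of the counts in the wild-type libraries and 0.835%, 0.844% and 0.858% in the mutant libraries. These shares did not overlap, with means of 0.741% ± 0.048 (SD, n = 3) and 0.846% ± 0.011 (SD, n = 3), and the exact two-sided permutation test gave p = 0.10, the smallest that 3 libraries against 3 allow. Scaled by TMM (trimmed mean of M-values, which sets library sizes by the bulk of genes), the 10 genes together reached 7056, 8890 and 6786 CPM in the wild type and 7982, 7961 and 9077 CPM in the mutant. On that scale the groups overlapped, because wild-type replicate 2 lay above the first and second mutant libraries.

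Levels per transcript length are given as FPKM (fragments scaled to transcript length and library size), as deposited. The H2B gene htb1, the only H2B gene of this yeast, was the most abundant of the 10 in the wild type at 1725 ± 314 FPKM (SD, n = 3), which placed it 28th among all entries by mean level over the 6 libraries. The H3 gene hht2 followed at 1490 ± 84.1 FPKM (SD, n = 3), then hht3 at 1093 ± 156 FPKM (SD, n = 3) and the H2A gene hta2 at 985 ± 10.8 FPKM (SD, n = 3). The lower part of the order was hht1 at 754 ± 125 FPKM (SD, n = 3), hhf2 at 534 ± 109 FPKM (SD, n = 3), hhf3 at 389 ± 19 FPKM (SD, n = 3), hta1 at 291 ± 51.9 FPKM (SD, n = 3) and hhf1 at 230 ± 56.7 FPKM (SD, n = 3). The H2A.Z gene pht1 was lowest at 209 ± 32.3 FPKM (SD, n = 3). Neighbours whose wild-type libraries overlapped were htb1 with hht2, hht3 with hta2, hhf2 with hhf3, hta1 with hhf1, and hhf1 with pht1.

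In the mutant the order by mean was the same, except that hta2 at 1260 ± 45.4 FPKM (SD, n = 3) stood above hht3 at 1144 ± 44.2 FPKM (SD, n = 3). There the only neighbours with overlapping libraries were hta1, at 353 ± 30.6 FPKM (SD, n = 3), and hhf1, at 327 ± 29.1 FPKM (SD, n = 3). In FPKM the SD was smaller in the mutant than in the wild type for each gene except hta2. As a share of the mean of TMM-scaled CPM it was smaller for 7 of the 10 genes, the exceptions being hta2, hht2 and pht1. The SD of htb1 was 26.5% of the mean in the wild type and 11.1% in the mutant on the TMM-scaled CPM scale. For hta1 these were 26.5% and 4.44%, and for hht1 25.4% and 8.16%. For htb1, hta1 and hht1, wild-type replicate 2 was at 1.51, 1.52 and 1.51 times the mean of the other wild-type libraries. Between libraries, the chi-square scaled by its degrees of freedom was 176 and 280 for wild-type pairs with replicate 2. It was 32.4 for the other wild-type pair and 26.7 to 75.7 for mutant pairs. The share of all genes with a smaller SD in the mutant was not tested. The counts of genes given here are thus not taken as particular to the histones.

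**Figure D2:**
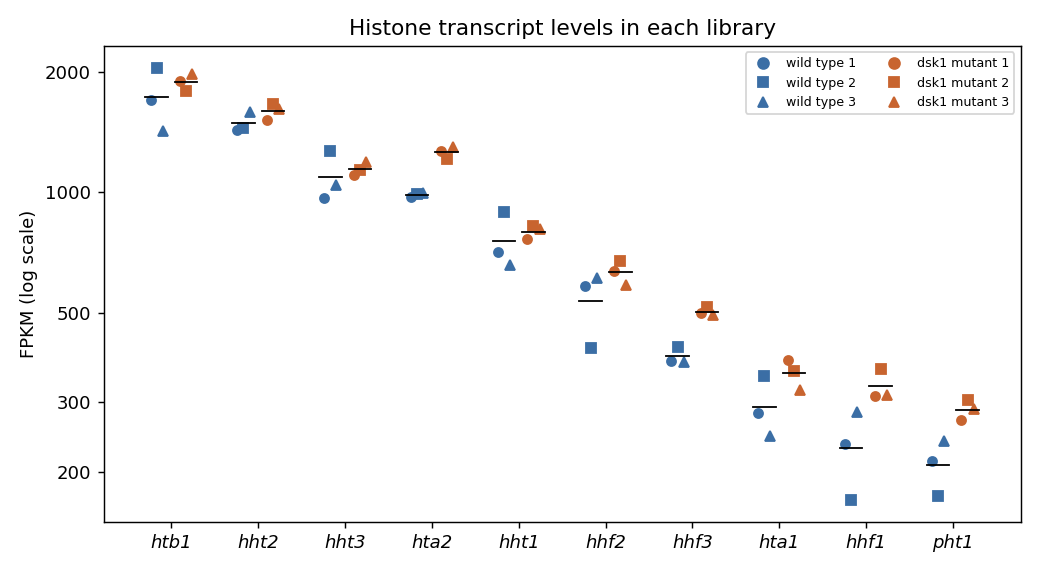
FPKM of the 10 histone genes in each library (log axis; blue wild type, orange dsk1 mutant, marker shape the replicate, bars the group means), ordered by wild-type mean. The values run from 1725 FPKM for htb1 to 209 FPKM for pht1 in the wild type; all mutant points of hta2, hhf3, hhf1 and pht1 lie above all their wild-type points.

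Within a class, the copies contributed unequally. Of the H2A FPKM, hta2 made up 77.3% ± 3.10 (SD, n = 3) in the wild type and 78.1% ± 1.82 (SD, n = 3) in the mutant. Of the H3 FPKM, hht2 made up 44.8% ± 4.21 (SD, n = 3), hht3 32.6% ± 2.14 (SD, n = 3) and hht1 22.5% ± 2.39 (SD, n = 3) in the wild type, and 45.1%, 32.3% and 22.5% in the mutant. Of the H4 FPKM, hhf2 made up 46.0% ± 4.06 (SD, n = 3), hhf3 34.3% ± 6.32 (SD, n = 3) and hhf1 19.7% ± 2.55 (SD, n = 3) in the wild type, and 43.2%, 34.5% and 22.3% in the mutant. Thus in both classes the pair hht2 and hhf2 gave the largest share and the pair hht1 and hhf1 the smallest, except in wild-type replicate 2, where hhf3 (41.5%) and hhf2 (41.3%) were level.

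Between the genotypes, none of the 10 histone genes passed the test across all genes. With edgeR, at an adjusted p under 0.05, 0 of the 10 were called, beside 2.03% of all 4987 tested genes (0.441% with a higher and 1.58% with a lower level in the mutant). In bulk RNA, fewer cells of a type and less RNA per cell cannot be told apart, which holds for each difference given here. At an unadjusted p under 0.05, 3 of the 10 were higher and 0 lower, against 9.20% of all tested genes higher and 22.7% in either direction. The DESeq2 Wald test called 1, pht1, against 4.01% of genes called higher and 11.1% in either direction, and limma on log2(FPKM + 1) called 0, against 1.93% of genes in either direction. The fitted log2 fold changes of the 10 were all above 0, from 0.010 to 0.48 with a median of 0.21, while 50% of all tested genes lay above 0 and their median was 0.00 to 2 decimals. For 5 genes, hta2, hhf1, hhf2, hhf3 and pht1, all mutant libraries lay above all wild-type libraries in TMM-scaled CPM, as for 15.5% of all tested genes, and for 0 of the 10 all mutant libraries lay below, as for 16.6%. In FPKM this held for 4, hhf2 dropping out, as for 13% of all tested genes. These genes may vary together, so the counts are not independent observations.

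The values that follow are TMM-scaled CPM. The H2A.Z gene pht1 stood at 264, 247 and 290 CPM in the wild type and 326, 362 and 385 CPM in the mutant. Each mutant library was above each wild-type library, and the log2 fold change was 0.42 (SE 0.12, 95% interval 0.14 to 0.71, adjusted p = 0.112). The adjusted p of pht1 ranged from 0.0238 to 0.354 over 15 alternative analyses, with the lowest from the DESeq2 Wald test. The authors' deposited table, which called 11% of all entries, gave pht1 a log2 fold change of 0.46 and the same adjusted p of 0.0238. For each of the 10 histone genes the deposited adjusted p equalled that of DESeq2 here, so it is not a further result. The fold of pht1 was 1.34 with a 95% interval of 1.10 to 1.63.

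Among the H4 genes, hhf1 stood at 178, 147 and 210 CPM in the wild type and 228, 263 and 255 CPM in the mutant. Its groups did not overlap, and its log2 fold change of 0.48 (SE 0.15, 95% interval 0.12 to 0.84, adjusted p = 0.133) was the highest of the 10. The second H4 gene, hhf3, stood at 271, 336 and 265 CPM in the wild type and 350, 357 and 382 CPM in the mutant. Its groups did not overlap either, with a log2 fold change of 0.32 (SE 0.13, adjusted p = 0.204). Without wild-type replicate 2, hhf3 was at 0.44 and passed (adjusted p = 0.0360, range 0.0360 to 0.449 over the alternatives), in a fit that called 9.32% of all tested genes, 3.30% higher. The most abundant H4 gene, hhf2, stood at 486, 391 and 502 CPM in the wild type and 520, 544 and 531 CPM in the mutant. The gap between its groups was small beside the spread of the wild type, and the log2 fold change was 0.21 (SE 0.13, adjusted p = 0.366), or 0.11 without wild-type replicate 2. Summed over the 3 genes, H4 stood at 935, 874 and 977 CPM in the wild type and 1098, 1163 and 1168 CPM in the mutant, a 1.23-fold difference (exact two-sided permutation p = 0.10, 0.25 adjusted over the 5 classes, higher in 3 of 3 mutant libraries).

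Among the H2A genes, hta2 stood at 906, 1053 and 908 CPM in the wild type and 1156, 1087 and 1310 CPM in the mutant. All mutant libraries were above all wild-type libraries, though mutant replicate 2 was close to wild-type replicate 2, and the log2 fold change was 0.31 (SE 0.14, 95% interval -0.02 to 0.64, adjusted p = 0.245). The less abundant hta1 stood at 294, 416 and 253 CPM in the wild type and 391, 361 and 364 CPM in the mutant. Wild-type replicate 2 was the highest of its 6 libraries, and the log2 fold change was 0.21 (SE 0.19, adjusted p = 0.511). Without that library hta1 was at 0.45 and passed (adjusted p = 0.0454, range 0.0454 to 0.820 over the alternatives), in a fit that called 9.32% of all tested genes, 3.30% higher, while without wild-type replicate 3 it was at 0.067 (adjusted p = 0.820). The H2A sum was 1.22-fold higher, with overlapping groups (exact two-sided permutation p = 0.20, adjusted p = 0.333). The overlap depended on the scaling. In FPKM the H2A sums were 1254, 1338 and 1239 in the wild type and 1653, 1568 and 1621 in the mutant. Those groups did not overlap (exact two-sided permutation p = 0.10, unadjusted).

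The H2B gene htb1 stood at 2150, 2954 and 1765 CPM in the wild type and 2344, 2176 and 2697 CPM in the mutant. Its groups overlapped widely, with a log2 fold change of 0.07 (SE 0.22, 95% interval -0.45 to 0.59, adjusted p = 0.863). Of the 10 genes, its interval was the widest. Its highest and lowest libraries were both wild type, as were those of hta1, hht1 and hht3.

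The H3 genes gave the smallest values. The transcript of hht2 stood at 1090, 1261 and 1186 CPM in the wild type and 1128, 1218 and 1326 CPM in the mutant, with overlapping groups and a log2 fold change of 0.05 (SE 0.14, 95% interval -0.27 to 0.38, adjusted p = 0.830). For hht3 the values were 813, 1216 and 858 CPM in the wild type and 905, 919 and 1082 CPM in the mutant, and for hht1 they were 605, 869 and 549 CPM and 634, 675 and 744 CPM. In both, wild-type replicate 2 was above every other library, and the log2 fold changes were 0.010 (95% interval -0.43 to 0.45) and 0.02 (95% interval -0.43 to 0.47). Summed over the 3 genes, H3 stood at 2508, 3346 and 2593 CPM in the wild type and 2667, 2812 and 3153 CPM in the mutant (1.03-fold, exact two-sided permutation p = 0.70, adjusted p = 0.80). The direction of htb1, hht1, hht2 and hht3 turned with 1 library left out, as given in the account of alternatives.

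**Figure D3:**
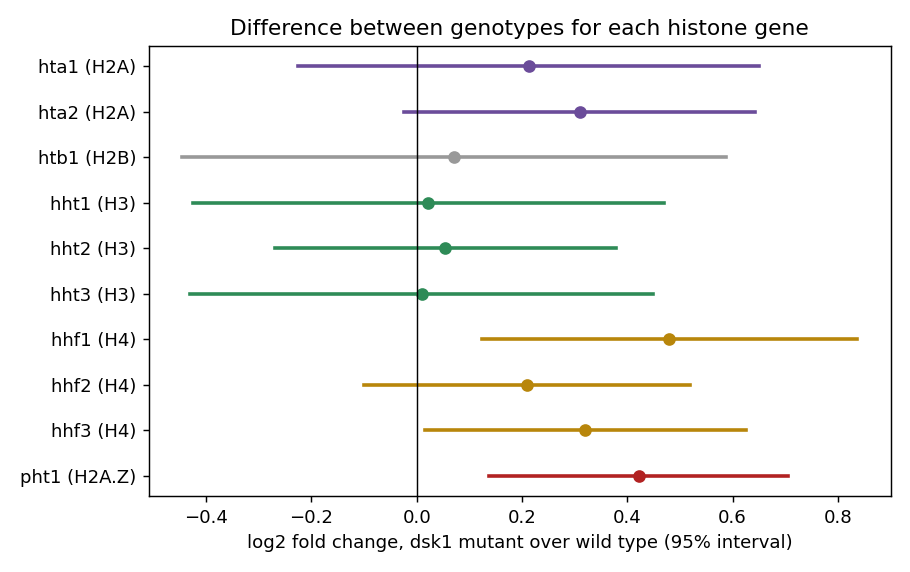
Log2 fold change of each histone gene, dsk1 mutant over wild type, with its 95% interval from the fit across all genes (3 libraries per group; colours mark the histone class). The intervals of hhf1, hhf3 and pht1 lie above 0 before adjustment for multiple testing, and the other 7 include 0.

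The H3 and H4 genes of a pair share a promoter region, and their ratio within a library does not depend on library scaling. The ratio of hht1 to hhf1 in FPKM was 3.02, 5.25 and 2.32 in the wild type and 2.47, 2.28 and 2.59 in the mutant. For hht2 over hhf2 it was 2.46, 3.54 and 2.60 in the wild type and 2.39, 2.46 and 2.74 in the mutant. For hht3 over hhf3 it was 2.56, 3.09 and 2.76 in the wild type and 2.21, 2.20 and 2.42 in the mutant, the only one of the H3 and H4 pairs whose groups did not overlap. H3 transcripts thus exceeded H4 transcripts in each pair and library, by 2.20-fold to 5.25-fold, and wild-type replicate 2 had the highest ratio in each pair. In log2 the mutant differed from the wild type by -0.45 for hht1 over hhf1 (exact two-sided permutation p = 0.30), -0.16 for hht2 over hhf2 (p = 0.50) and -0.30 for hht3 over hhf3 (p = 0.10), each with an adjusted p of 0.60 over 6 ratios. The size of the first and second values depended on single wild-type libraries, though each of these values stayed negative with 1 library left out. The first was -0.12 without wild-type replicate 2 and -0.71 without wild-type replicate 3, the second -0.002 without wild-type replicate 2 and -0.26 without wild-type replicate 1, and the third ranged from -0.36 to -0.23 with 1 library left out.

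Summed over all copies, H3 over H4 was 2.60, 3.65 and 2.58 in the wild type and 2.34, 2.33 and 2.59 in the mutant (exact two-sided permutation p = 0.20, adjusted p = 0.60). The third mutant library lay within the wild-type range. In the hta1 and htb1 pair, hta1 over htb1 was 0.165, 0.170 and 0.173 in the wild type and 0.201, 0.200 and 0.163 in the mutant. This wild-type ratio was the tightest of the ratios measured, including in wild-type replicate 2, and mutant replicate 3 lay below all of it (log2 difference 0.15, exact two-sided permutation p = 0.40, adjusted p = 0.60). With 1 library left out the difference ranged from 0.093, without mutant replicate 1, to 0.25, without mutant replicate 3. For hta2 over hta1, which have separate promoters, the ratio was 3.47, 2.85 and 4.04 in the wild type and 3.33, 3.39 and 4.05 in the mutant (exact two-sided permutation p = 0.90).

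**Figure D4:**
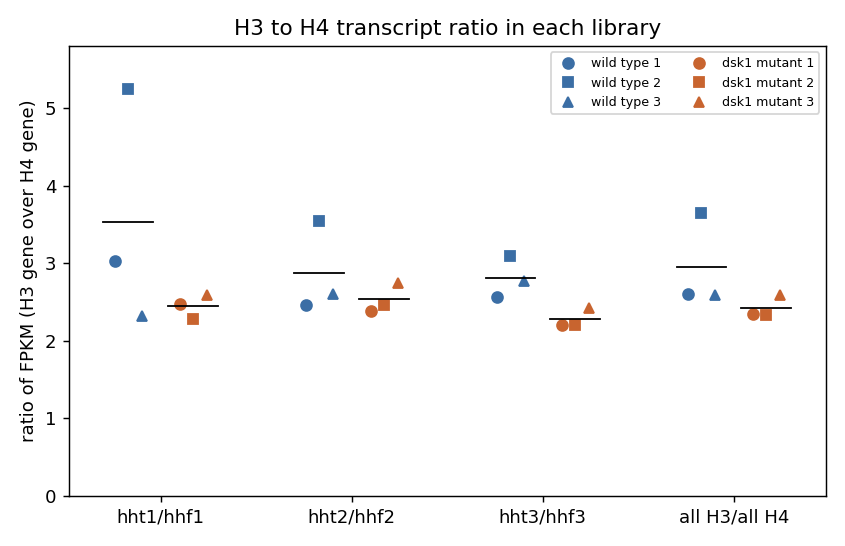
Ratio of H3 to H4 transcript levels (FPKM over FPKM) for each divergent pair and for all copies summed, in each library (blue wild type, orange dsk1 mutant, marker shape the replicate, bars the group means). Wild-type replicate 2, the blue square, is highest in each column, at 5.25 for hht1/hhf1 and 3.65 for the sums.

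Wild-type replicate 2 moved the histone genes in opposite directions. Against the mean of the other wild-type libraries it was at 1.52 times the level for hta1, 1.51 for htb1, 1.51 for hht1 and 1.45 for hht3. It was also the highest wild-type library for hhf3 (1.25), hta2 (1.16) and hht2 (1.11). For hhf1 (0.758), hhf2 (0.792) and pht1 (0.891) it was the lowest. The pairs hht1 with hhf1 and hht2 with hhf2 were thus split within a shared promoter region.

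The RNA behind the members was shorter than average, with transcript lengths of 732 to 1291 bases behind the deposited FPKM against a median of 1826 over all tested genes. Longer transcripts had higher log2 fold changes (Spearman 0.241 across genes, which do not count as independent replicates), and mutant replicates 1 and 2 leaned to long transcripts (0.300 and 0.289) while mutant replicate 3 did not (-0.08). With this trend taken out, the log2 fold changes of the 10 genes were 0.10 to 0.59, with 0 called by edgeR, against 2.01% of all tested genes.

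Among genes that regulate histone transcription, 8 of 9 lay above 0, with a median log2 fold change of 0.17, beside 0.00 for all tested genes. EdgeR called 0 of them, with 1 at an unadjusted p under 0.05, limma called 0 and DESeq2 called 1, the activator gene ams2. Over all genes and in either direction, 22.7% had an unadjusted p under 0.05, and edgeR called 2.03%, limma 1.93% and DESeq2 11.1%. The same shares stand beside the counts of the lists that follow. The ams2 transcript stood at 67.5, 69.0 and 79.9 CPM in the wild type and 100.1, 112 and 98.5 CPM in the mutant, with a log2 fold change of 0.52 (SE 0.12, adjusted p = 0.0712 in edgeR and 0.00459 in DESeq2). All mutant libraries were above all wild-type libraries, as for 15.5% of all tested genes. The HIRA subunit genes hip1 and hip3 were at 0.64 and 0.36, and dfp1, which encodes the regulatory subunit of the Hsk1 kinase, was at 0.26, all without passing. Wild-type replicate 2 was lowest for hip1, at 31.7 CPM against 57.9 and 70.5 CPM.

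Of 13 histone chaperone genes tested, 6 lay above 0 with a median of -0.00 to 2 decimals, edgeR called 0 with 2 higher at an unadjusted p under 0.05, limma called 0 and DESeq2 called 1, nap1. Nap1 carries H2A and H2B, and its gene was at 0.45 (edgeR adjusted p = 0.125), with 325, 262 and 305 CPM in the wild type and 405, 362 and 452 CPM in the mutant. The elongation chaperone gene spt6 was at 0.46, nap2 at -0.26 and mis16, a WD-repeat histone-binding protein of the centromere, at -0.33. The centromeric H3 variant gene cnp1 was at 17.7, 14.9 and 20.3 CPM in the wild type and 21.2, 25.3 and 21.0 CPM in the mutant, a log2 fold change of 0.35 (SE 0.17, adjusted p = 0.273).

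Of 22 genes for the SWR1 and INO80 remodellers, which act on H2A.Z, 14 lay above 0 with a median of 0.08. None passed in edgeR (0 called) or limma (0 called), and DESeq2 called 2 lower, against 11.1% of all genes in either direction. At an unadjusted p under 0.05 there were 5, of which 4 were lower, against 22.7% of all tested genes in either direction. The lower values were those of vps71, a SWR1 subunit, at -1.18 (edgeR adjusted p = 0.0512), with 7.62, 6.18 and 8.84 CPM in the wild type and 2.81, 3.55 and 3.64 CPM in the mutant, and of the INO80 subunit gene ies6 at -0.68. The YEATS-domain subunit gene yaf9 was at -0.67 and arp8 at -0.31. In the same libraries pht1, the substrate of these complexes, had a log2 fold change of 0.42 without passing in edgeR.

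Of 18 genes for histone-modifying enzymes, 14 lay above 0 with a median of 0.24, edgeR called 0 with 1 in each direction at an unadjusted p under 0.05, limma called 0 and DESeq2 called 1 lower. This was sir2, a sirtuin deacetylase, at -1.21 (edgeR adjusted p = 0.0706), with 123, 188 and 81.9 CPM in the wild type and 62.1, 55.3 and 51.6 CPM in the mutant. The deacetylase genes clr6 and clr3 were at 0.44 and 0.29, and brl2, a subunit of the H2B ubiquitin ligase, at 0.54.

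**Figure D5:**
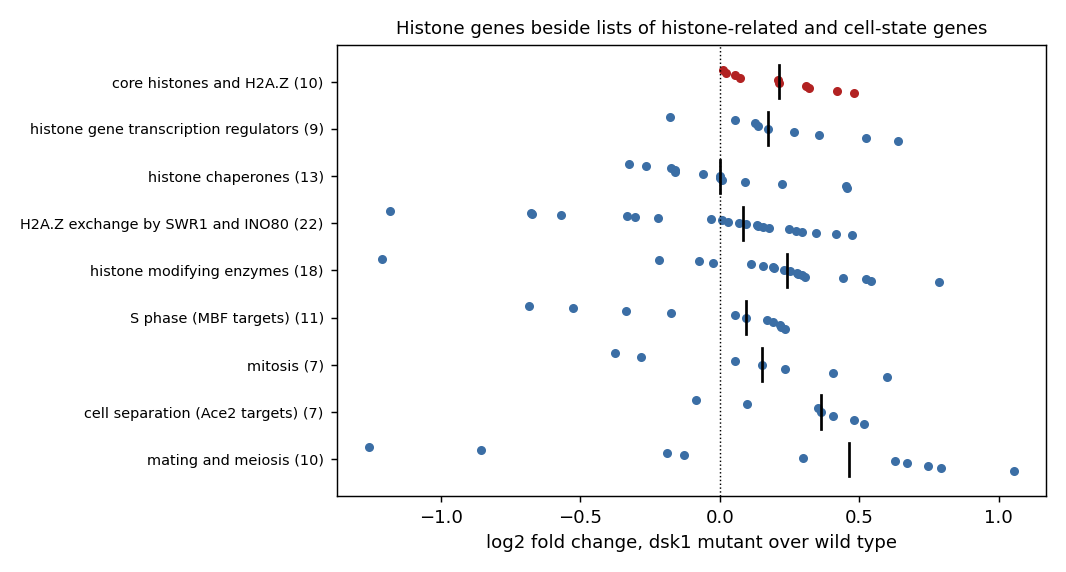
Log2 fold change, dsk1 mutant over wild type, of the 10 histone genes (red) and of the tested genes of each list (blue; number of genes in brackets, vertical bars the medians). The histone genes lie between 0.010 and 0.48, with a median of 0.21, within the range covered by the other lists.

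Markers of cell state are given beside these values, since histone transcript levels vary over the cell cycle. The 11 S-phase transcripts driven by the MBF factor summed to 952 to 1081 CPM in the wild type and 1011 to 1093 CPM in the mutant, and edgeR called 0 of them. Their median log2 fold change was 0.09, with 0 higher and 2 lower, ctp1 at -0.53 and yox1 at -0.68, at an unadjusted p under 0.05, and neither DESeq2 nor limma called any. The 7 mitotic transcripts summed to 693 to 753 CPM and 801 to 910 CPM, with 0 called by edgeR, 1 by DESeq2 and 0 by limma, and with 3 at an unadjusted p under 0.05, of which 2 were higher. The 7 cell separation transcripts summed to 2211 to 2587 CPM and 2740 to 3321 CPM with a median of 0.36, with 0 called by edgeR, 2 by DESeq2 and 1 by limma, and with 3 higher at an unadjusted p under 0.05. The 10 mating and meiosis transcripts summed to 335 to 535 CPM and 552 to 685 CPM, with a median of 0.46, with 0 called by edgeR, 1 in each direction by DESeq2 and 0 by limma, and with 3 at an unadjusted p under 0.05, of which 2 were higher. The summed mitotic, cell separation and mating levels did not overlap between the groups, while the S-phase sums did, and the part of cell state in the histone values was not tested.

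The 11 genes outside the histones that hold AACCCTAACCCT in the same window had a median log2 fold change of 0.002, with 6 above 0. EdgeR called 0 of the 11, limma called 0 and DESeq2 called 1, SPAC27E2.11c. That gene was at 0.41 (adjusted p = 0.00848 in DESeq2 and 0.229 in edgeR). An unadjusted p under 0.05 in edgeR was found for 2, ssa1 and tbp1. The 11 also include the genes that follow, named after their values were seen. These are tbp1, for the TATA-binding protein, at 0.39, and the elongation factor gene eft201 at 0.002. The chaperone genes hsp90, ssa1 and ssa2 were at -0.46, -1.56 and -0.48. The 11 values lay on both sides of 0, as do those of all tested genes, of which 50% lay above 0. The part of the repeat in these values was not tested.

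The genes outside the histones whose centred profile over the 6 libraries lay nearest to the mean profile of the 9 core histone genes were picked from 2167 genes with a mean of at least 100 CPM. The nearest was nmd3, for an export adaptor of the large ribosomal subunit, with a root mean square distance of 0.03 on the log2 scale and values of 193, 225 and 185 CPM in the wild type and 227, 218 and 244 CPM in the mutant. It was followed by sbp1, for a Ran-binding protein, at 0.04, SPAC1039.03, annotated as an esterase or lipase, at 0.04, SPAC1486.01, annotated as a manganese superoxide dismutase, at 0.05, and erj5, for a DNAJ domain protein, at 0.05. Among the histone genes themselves the distance from that mean was 0.07 for hhf3 and hta2, 0.10 for hht2, 0.14 for hht1 and hht3, 0.15 for hta1, 0.16 for htb1, 0.19 for pht1, 0.20 for hhf2 and 0.28 for hhf1. These 5 genes were selected for nearness to that profile and the histone genes were not, so the distances of the 2 sets are not compared.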

How the data were processed

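Per the labels' protocols, Trizol-extracted RNA was enriched for mRNA with oligo(dT), amplified and sequenced. Tools listed without role or version, per the submitters' processing notes, are HISAT2, Bowtie2, RSEM, StringTie, DESeq2 and fastp. For each gene and library the deposited table holds a count and an FPKM, per the file headers. It adds a comparison by the authors, with a p-value, an adjusted p and a log2 ratio of the genotypes. Counts were tested with edgeR 4.0.16 (quasi-likelihood, TMM, default expression filter, genotype as the only term) over the 4987 of 5160 entries kept, with Benjamini-Hochberg adjustment and calls at an adjusted p under 0.05. The 10 histone genes all passed the filter. DESeq2 1.42.0, limma 3.58.1 (on log2(FPKM + 1) or log2(FPKM + 0.1)), other scalings and filters, a length correction, a replicate block and leaving out each library were the alternatives. The deposited FPKM equals the count divided by library total and a fixed transcript length, recomputed for each gene. Class sums and ratios had exact permutation tests. ASM294v3 matched 5109 entries. Gene lists, the rule for naming genes (all 10 members, and up to 4 of each list by smallest adjusted p) and the members were chosen with earlier results of these data known. Counts differed between all replicate pairs by more than sampling noise (chi-square per degree of freedom 26.7 to 280).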

Additional observations from a re-analysis of the deposited data

How the results depend on the processing

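Against 101 genes called by edgeR, the DESeq2 Wald test called 568, limma on log2(FPKM + 1) over all genes called 63, and leaving out 1 library gave 3 to 466. The lowest came without mutant replicate 3, followed by 5 and 7 without mutant replicates 1 and 2 and 11 without wild-type replicate 1, while 466 came without wild-type replicate 2 and 179 without wild-type replicate 3. With the replicate number as a block, 3 genes were called. Same-numbered libraries had correlated deviations of 0.143, -0.397 and -0.187, so the numbers are not taken to pair the libraries, and the replicate block changed no histone call. Of the 10 histone genes, edgeR called 0, DESeq2 called 1 (pht1), and leaving out a library gave 0 to 2, the 2 being hta1 and hhf3 without wild-type replicate 2. The values of hta1, hta2, hhf1, hhf2, hhf3 and pht1 kept their direction under the 15 alternatives. With wild-type replicate 3 left out, htb1 was at -0.085, hht1 at -0.11 and hht3 at -0.066. Leaving out mutant replicate 3 gave -0.019 for htb1, -0.043 for hht1, -0.077 for hht3 and -0.0072 for hht2, and leaving out wild-type replicate 1 gave -0.047 for hht1 and -0.094 for hht3. With 1 library left out, htb1 ranged from -0.085 to 0.30, hht1 from -0.11 to 0.25, hht2 from -0.0072 to 0.11 and hht3 from -0.094 to 0.21. For hta1 the range was 0.067 to 0.45, and for hhf2 0.11 to 0.28. The H2B difference ranged from -0.073 to 0.30, the H3 sum from -0.037 to 0.17 and the ratio of hta2 to hta1 from -0.067 to 0.19. The sums of H2A and H4, pht1, and the ratios within the divergent pairs kept their direction. The causes were not tested. With 3 libraries a group, exact tests cannot go below p = 0.10.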
